A study of Mus musculus with 7 samples.

Results

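The inflammasome and interleukin-1 genes were 10 mouse genes chosen by name: the sensors Nlrp3 and Aim2, the adaptor Pycard, the protease Casp1, the pore-forming Gsdmd, the cytokines Il1a, Il1b and Il18, the receptor antagonist Il1rn and the receptor Il1r1. They were matched by symbol to the Ensembl gene identifiers of a table of 21965 genes, and all 10 were found and passed the filter on low counts, which 15743 genes of the table passed. RNASeq had been made from spinal cord of 3 mice labelled Bmal1-/- and 4 wild type (WT) mice, with 1 library per mouse, to ask how loss of the clock factor BMAL1 alters the transcriptome of the injured cord. Every mouse had received a moderate contusion of 50 kdyn at thoracic level 9 and was killed at 3 days post injury (dpi 3), and the 5 mm of cord around the epicenter was taken, so that both groups carried the injury and no uninjured cord was compared here. The knockout was the global germ-line allele Arntl tm1Bra on a C57BL/6J background (Arntl is another name of Bmal1), bred from heterozygous parents, and it was not limited to any cell type. The WT mice were C57BL/6J animals, mostly bought, with 1 littermate of the knockouts among them according to a figure legend of the study. There were 2 females and 1 male labelled Bmal1-/- and 2 females and 2 males among the WT. By the methods of the study the mice were injured at an age of 8 to 10 weeks.

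An inflammasome is a protein complex that assembles in macrophages, microglia and some other cells when a sensor such as NLRP3 or AIM2 detects danger signals or cytosolic DNA. The adaptor ASC, the product of Pycard, links the sensor to caspase-1, which cleaves pro-IL-1β and pro-IL-18 into their active forms and cuts gasdermin D, whose fragment opens pores in the membrane. IL-1α and IL-1β both signal through IL1R1, which the antagonist encoded by Il1rn blocks. REV-ERBα and REV-ERBβ, encoded by Nr1d1 and Nr1d2, are repressors whose transcription BMAL1 drives, and Nlrp3 and Il1b are known REV-ERB targets in macrophages. Caspase-1 activity, cytokine processing and secretion are changes of protein, which transcript counts do not measure.

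The libraries held between 38529644 and 44096737 counts. WT replicate 3 stood apart from the other 6 libraries in a principal component analysis of all tested genes, where the first component held 48.6% and the second 26.3% of the variance. Arntl itself was at 23.6 ± 0.94 counts per 1000000 (CPM; SD, n = 3) in the group labelled Bmal1-/- and at 13.8 ± 1.50 CPM (SD, n = 4) in WT, higher in the group labelled as its knockout, and a count over the whole gene does not show whether the deleted part was present. Nr1d1 and Nr1d2, whose transcription BMAL1 drives, fell in the same libraries, in the direction their labels give. The group is named by its label throughout. The defining markers of spinal cord were present, with none of 9 at 0 in any library, and those of macrophages (14), microglia (10) and neutrophils (10) were all above 0 in every library as well.

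The stretches of 250 bases just before the RefSeq start of a gene (GRCm38.p6) were read for 9 of the 10 genes, which had 13 such windows between them, and 4 are shown because they belong to the caspase whose transcript fell, to the 2 known REV-ERB targets and to the antagonist of IL-1. They were searched on both strands for CACGTG, the palindromic E-box that the BMAL1 complex is known to bind, for AGGTCA, the core of the sites that REV-ERB and ROR proteins share, and for TATAAA, the TATA box; these motifs do not overlap one another in the windows shown, and capitals mark each match. Positions are counted back from the start, with the base before it as -1. The windows are Casp1 at chr9:5298267-5298516 on the plus strand, Nlrp3 at chr11:59541319-59541568 on the plus strand, Il1b at chr2:129371140-129371389 on the minus strand and the most upstream start of Il1rn at chr2:24336610-24336859 on the plus strand.
Casp1: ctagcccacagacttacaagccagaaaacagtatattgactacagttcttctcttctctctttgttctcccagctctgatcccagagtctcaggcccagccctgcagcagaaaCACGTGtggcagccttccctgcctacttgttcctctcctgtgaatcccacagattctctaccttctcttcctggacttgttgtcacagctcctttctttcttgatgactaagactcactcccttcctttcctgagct
Nlrp3: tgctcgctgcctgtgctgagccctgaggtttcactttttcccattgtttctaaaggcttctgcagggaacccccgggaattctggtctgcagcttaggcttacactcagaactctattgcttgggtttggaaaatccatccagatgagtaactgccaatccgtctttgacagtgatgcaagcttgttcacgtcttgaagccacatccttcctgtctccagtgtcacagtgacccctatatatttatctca
Il1b: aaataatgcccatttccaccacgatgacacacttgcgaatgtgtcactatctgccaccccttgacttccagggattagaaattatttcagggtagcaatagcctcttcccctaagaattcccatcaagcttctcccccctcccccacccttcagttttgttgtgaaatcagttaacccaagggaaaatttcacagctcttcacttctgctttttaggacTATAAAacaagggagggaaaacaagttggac
Il1rn: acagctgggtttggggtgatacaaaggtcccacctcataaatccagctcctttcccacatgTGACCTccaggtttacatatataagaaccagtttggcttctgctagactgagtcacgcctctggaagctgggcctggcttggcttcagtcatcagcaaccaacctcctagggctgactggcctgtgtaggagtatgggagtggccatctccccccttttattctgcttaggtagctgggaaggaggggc
CACGTG stood in 1 of the 13 windows, that of Casp1, at position -137, where 6.02% of 32851 promoter windows of this length held it. AGGTCA stood in 1, the Il1rn window shown, where it reads TGACCT on the printed strand, at position -189, against 14% of all windows. Neither Nlrp3 window held any of the 3 motifs. TATAAA stood in 3 windows, those of Il1b at -31, Il1a at -32 and Il18 at -175, against 12.4% of all windows. These matches describe the letters in 1 short stretch, and no binding was measured.

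On GRCm38, Nlrp3 (ENSMUSG00000032691) spans chr11:59541568-59566956, Aim2 (ENSMUSG00000037860) spans chr1:173350879-173466040 and Pycard (ENSMUSG00000030793) spans chr7:127989708-127993867. Casp1 (ENSMUSG00000025888) spans chr9:5298517-5307265, Il18 (ENSMUSG00000039217) spans chr9:50554827-50581840 and Gsdmd (ENSMUSG00000022575) spans chr15:75862327-75867408. Il1a (ENSMUSG00000027399) at chr2:129299610-129309972 and Il1b (ENSMUSG00000027398) at chr2:129364570-129371139 are neighbours on the minus strand, 54.6 kb apart. Il1rn (ENSMUSG00000026981) spans chr2:24336853-24351494 and Il1r1 (ENSMUSG00000026072) spans chr1:40225080-40317257.

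Casp1 was the member whose transcript fell. Its levels were 7.68, 7.36 and 6.73 CPM in the group labelled Bmal1-/- and 11.1, 10.6, 13.7 and 14.0 CPM in WT, so the groups did not overlap. The mean was 58.7% of that in WT, at 7.25 ± 0.48 CPM (SD, n = 3) against 12.3 ± 1.75 CPM (SD, n = 4). The difference was -0.77 on the log2 scale (SE 0.13, 95% interval -1.08 to -0.46), with an adjusted p of 0.0419 (edgeR's quasi-likelihood test, Benjamini-Hochberg over all tested genes). Thus 1 of the 10 genes passed the threshold of 0.05, where 1.57% of all tested genes passed it in either direction and 0.915% passed it as lower. The call for Casp1 was near the threshold: it was kept without WT replicate 3 (adjusted p 0.0297) and lost with any other single library left out, up to an adjusted p of 0.198, while the difference stayed between -0.84 and -0.70. It was also lost with limma-voom (0.0538) and with sex as a covariate (0.0777), and DESeq2, the tool the study used, called it (2.84e-05). Casp1 lies 1.56 kb from Casp4, which encodes the caspase of the noncanonical inflammasome. Casp4 was at 4.26 ± 0.76 CPM (SD, n = 3) in the group labelled Bmal1-/- and at 5.91 ± 2.12 CPM (SD, n = 4) in WT, overlapped between the groups and did not pass the test (adjusted p 0.335, edgeR).

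Il1r1, the signaling receptor for IL-1α and IL-1β, showed the other separation between the groups. Its levels were 24.8, 24.5 and 19.8 CPM in the group labelled Bmal1-/- and 33.0, 30.0, 48.1 and 30.1 CPM in WT. Every WT library was above every library labelled Bmal1-/-, and WT replicate 3 was well above the other 3. The mean was 65.1% of that in WT, with a difference of -0.62 on the log2 scale (SE 0.19, 95% interval -1.06 to -0.18). It had an unadjusted p of 0.0122 and did not pass after adjustment (0.150, edgeR's quasi-likelihood test), whereas DESeq2 called it with an adjusted p of 0.0362. Without WT replicate 3 the difference was -0.43 and the adjusted p was 0.0597. Casp1 and Il1r1 were the 2 of 10 genes with an unadjusted p under 0.05, where 20.9% of all tested genes had one. They were also the 2 whose groups did not overlap, which 26.9% of all tested genes did in either direction and 13.5% did as lower, so neither count stands clearly apart from the table as a whole.

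**Figure D1:**
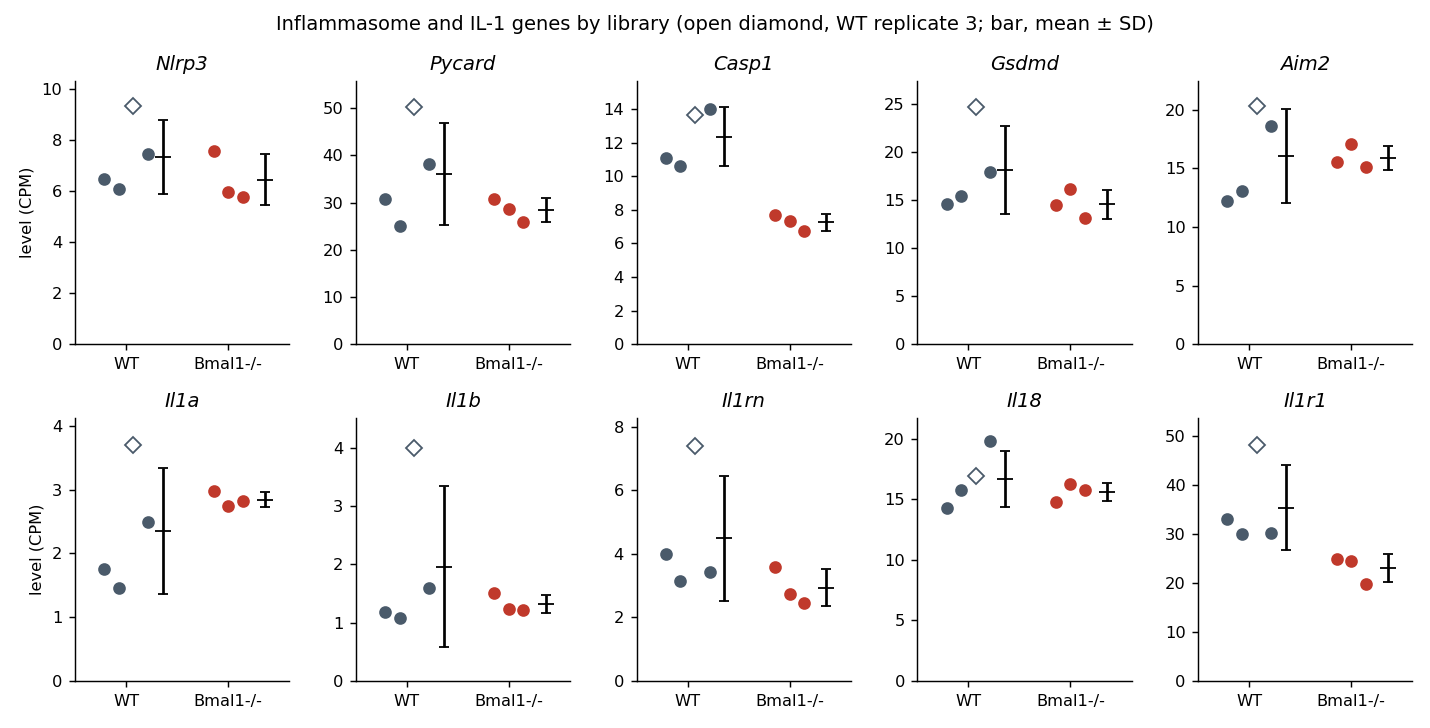
Level of each of the 10 genes in CPM in the 4 WT libraries (grey, with WT replicate 3 as an open diamond) and the 3 libraries labelled Bmal1-/- (red), with the mean ± SD beside each group. The groups separate for Casp1 and Il1r1, and WT replicate 3 is the highest library for 8 of the 10 genes. The share of all tested genes highest in that library was not counted.

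The sensors gave no call. Nlrp3, a sensor of ion flux and membrane damage, was at 7.57, 5.96 and 5.76 CPM in the group labelled Bmal1-/- and at 6.48, 6.09, 9.31 and 7.44 CPM in WT. The lowest libraries of both groups were close to 6 CPM and the ranges overlapped widely. Its difference was -0.19 on the log2 scale (SE 0.18, 95% interval -0.61 to 0.23; adjusted p 0.526 by edgeR). Aim2, the sensor of cytosolic double-stranded DNA, was at 15.6, 17.1 and 15.1 CPM in the group labelled Bmal1-/- and at 12.2, 13.1, 20.3 and 18.7 CPM in WT. The WT libraries lay on both sides of the others, and the difference of -0.01 had a 95% interval of -0.46 to 0.43, so changes up to about those sizes could not be told from none with these libraries.

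The adaptor and the pore-former were likewise below the WT mean without passing. Pycard was at 30.9, 28.6 and 25.9 CPM in the group labelled Bmal1-/- and at 30.9, 25.1, 50.2 and 38.1 CPM in WT. Gsdmd was at 14.4, 16.1 and 13.1 CPM against 14.6, 15.4, 24.7 and 17.9 CPM in WT. In both genes WT replicates 1 and 2 lay beside the libraries labelled Bmal1-/-, and WT replicate 3 was the highest, at 1.60 times the mean of the other WT libraries for Pycard and 1.54 times for Gsdmd. The difference was -0.34 for Pycard (SE 0.22, adjusted p 0.371, edgeR) and -0.32 for Gsdmd (SE 0.19, adjusted p 0.344, edgeR), and without WT replicate 3 it was -0.14 in each. Pycard lies on chromosome 7, 14.7 Mb from Arntl. An annotated gene on the opposite strand overlaps an exon of Pycard, and others overlap Il1a and Il1b, and whether the counting used strand was not given in the sources used here.

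Among the cytokines, Il1b had the widest spread. Il1b was at 1.50, 1.23 and 1.22 CPM in the group labelled Bmal1-/-, from 59, 53 and 48 counts, and at 1.17, 1.08, 3.99 and 1.59 CPM in WT, from 46, 42, 160 and 63 counts. A single library, WT replicate 3, was at 3.12 times the mean of the other WT libraries, and those 3 lay around the libraries labelled Bmal1-/-. The fitted difference of -0.57 (SE 0.48, 95% interval -1.70 to 0.55; adjusted p 0.470 by edgeR) became 0.04 without WT replicate 3, so its sign rested on that library. Il1a, whose product is active without cleavage by caspase-1, was at 2.97, 2.74 and 2.82 CPM in the group labelled Bmal1-/- and at 1.76, 1.47, 3.69 and 2.50 CPM in WT. It was the single member with a positive difference, at 0.27 (SE 0.31, adjusted p 0.594 by edgeR). Without WT replicate 3 the difference was 0.57 with an adjusted p of 0.163 by edgeR. Il18 was at 14.8, 16.3 and 15.7 CPM against 14.3, 15.8, 16.9 and 19.8 CPM in WT, with a difference of -0.10 (SE 0.12, 95% interval -0.37 to 0.18; adjusted p 0.624 by edgeR). Its WT libraries reached from just below to above the others, with WT replicate 4 the highest.

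Il1rn, the secreted antagonist that occupies IL1R1 without signaling, was at 3.58, 2.74 and 2.46 CPM in the group labelled Bmal1-/- and at 3.98, 3.14, 7.39 and 3.43 CPM in WT. WT replicate 3 was again the highest, at 2.10 times the mean of the other WT libraries. The difference was -0.61 on the log2 scale (SE 0.33, 95% interval -1.38 to 0.15; adjusted p 0.306 by edgeR), and it was -0.26 without WT replicate 3. The balance of antagonist and agonist was compared as the ratio of Il1rn to Il1b counts within each library, which was 2.39, 2.23 and 2.02 in the group labelled Bmal1-/- and 3.39, 2.90, 1.85 and 2.16 in WT. The log2 ratio was 1.14 ± 0.12 (SD, n = 3) against 1.32 ± 0.40 (SD, n = 4), a difference of -0.18 with an exact permutation p of 0.457 (two-sided, 35 assignments, smallest possible p 0.0286). WT replicate 3, where both transcripts were highest, had the lowest ratio of the 7 libraries.

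**Figure D2:**
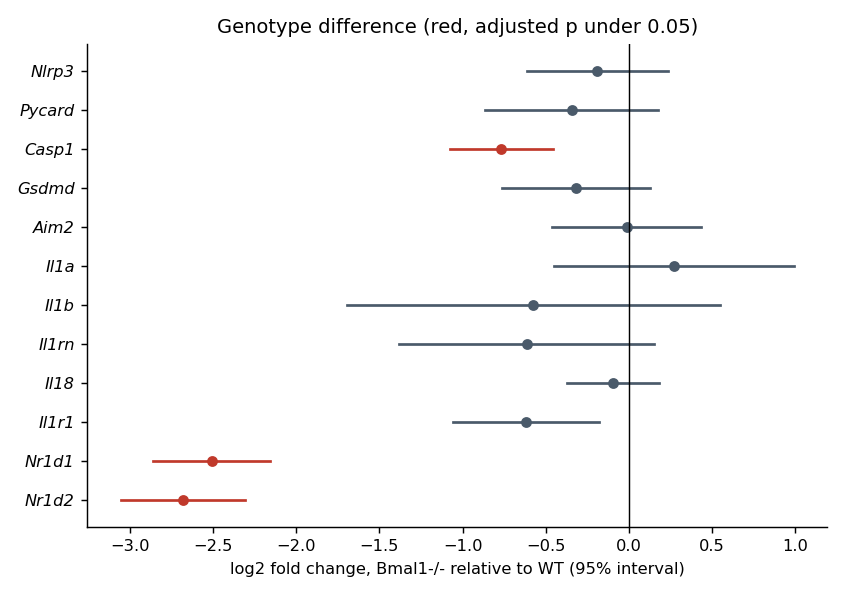
Difference between the libraries labelled Bmal1-/- and WT for each gene on the log2 scale, with the 95% interval of edgeR's fit, and the 2 REV-ERB genes below them for scale. Casp1, Nr1d1 and Nr1d2 (red) passed an adjusted p of 0.05, and 9 of the 10 members lie left of 0.

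Over the 10 genes, 9 differences were negative and 1 was positive, with a median of -0.33, where all tested genes had a median of -0.01 and 8042 of 15743 were negative. The median was -0.11 with 7 negative differences when WT replicate 3 was left out. These genes are not independent of one another, since the same WT library was the highest for 8 of them. How many of all tested genes were highest in that library was not counted. The coefficient of variation ran from 14.0% to 70.2% over the WT libraries and from 4.21% to 20.0% over those labelled Bmal1-/-. It was largest for Il1b in WT. The plot of fits with each library left out shows how far a single library moved each gene.

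**Figure D3:**
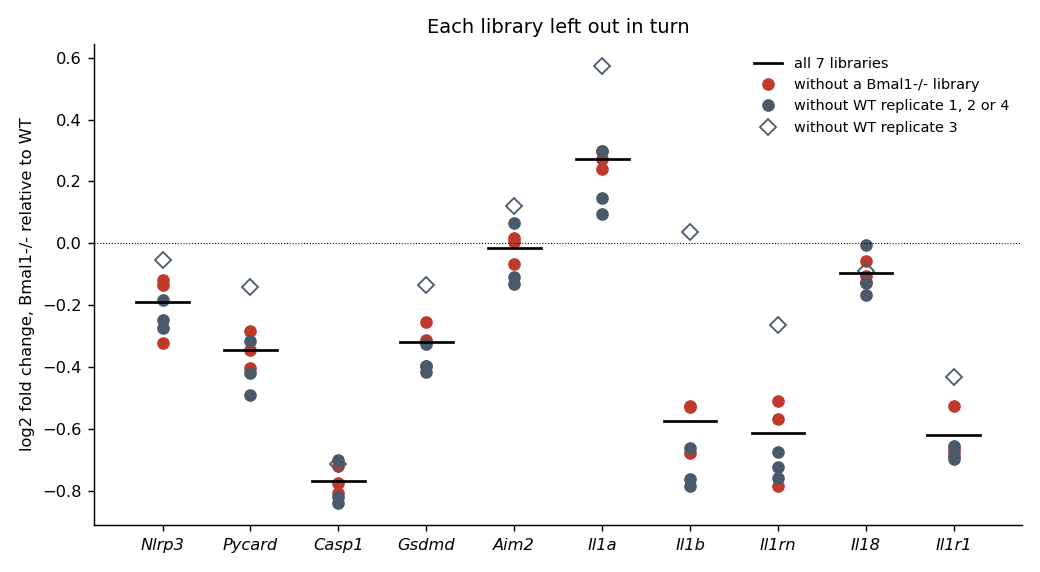
Difference between the groups on the log2 scale with all 7 libraries (bar) and with each library left out in turn (points; red, a library labelled Bmal1-/- left out; grey, a WT library; open diamond, WT replicate 3). Leaving out WT replicate 3 moves Il1b from -0.57 to 0.04 and Il1rn from -0.61 to -0.26, while Casp1 stays between -0.84 and -0.70.

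Most markers of macrophages and of neutrophils were also highest in WT replicate 3. The share of all tested genes highest in that library was not counted, for these or the other lists. The summed level of the 14 macrophage markers was 4715 CPM in WT replicate 3, 2339 to 3211 CPM in the other WT libraries and 2367 to 3157 CPM in those labelled Bmal1-/-, and 13 of the 14 were highest in WT replicate 3. Lyz2 made up the largest part of that sum, at 2583 CPM in WT replicate 3. The 10 neutrophil markers summed to 170 CPM in that library, against 72.4 to 117 CPM in the other WT libraries and 78.2 to 105 CPM in the group labelled Bmal1-/-. The 10 microglia markers did not single it out, with 3 of 10 highest there and sums of 1856 to 2407 CPM in WT against 1729 to 2031 CPM. Differences were negative for 12 of 14 macrophage, 9 of 10 neutrophil and 8 of 10 microglia markers. Over all tested genes 8042 of 15743 were negative. The list medians were, in that order, -0.42, -0.70 and -0.11 on the log2 scale, and -0.13, -0.29 and -0.12 without WT replicate 3. Mrc1 and Ccr2, 2 of the 14 macrophage markers, were lower without overlap, against 13.5% of all tested genes. No neutrophil or microglia marker separated the groups. No macrophage, neutrophil or microglia marker passed edgeR's quasi-likelihood test for genotype, while 4, 2 and 2 of them had an unadjusted p under 0.05, all lower. Over the whole table, 1926 of 15743 tested genes had such a p as lower. DESeq2 called 2, 0 and 1 of these markers, where it called 1495 of 18916 genes with an unadjusted p. Its own filter on low counts may leave some of those genes without an adjusted p, so the share among genes that could be called may be higher. Limma-voom called 0 of these markers, and without WT replicate 3 edgeR called 1 macrophage marker. Their part in the levels of the inflammasome and interleukin-1 genes was not tested, and in bulk tissue fewer cells of a type and less RNA per cell cannot be told apart.

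The summed levels of 2 other marker lists did not overlap between the groups. The 10 endothelial markers summed to 441 to 516 CPM in the group labelled Bmal1-/- and to 540 to 924 CPM in WT. The 924 CPM was WT replicate 3, where all 10 were highest, and the other WT libraries were at 540 to 620 CPM. All 10 had negative differences, with a median of -0.62 on the log2 scale and -0.39 without WT replicate 3. With all libraries 7 were lower without overlap, against 13.5% of all tested genes. Over all tested genes 0.915% passed edgeR's test as lower. Of these 10 markers 1, Cdh5, passed it with all libraries. The number was 3 without WT replicate 3 and 3 with DESeq2, and it was 0 with any other library left out, with limma-voom and with sex as a covariate. The 5 skeletal muscle markers, with Myh4 at 0 in at least 1 library, summed to 4.57 to 5.96 CPM in the group labelled Bmal1-/- and to 40.3 to 49.4 CPM in WT, and 4 of them fell by edgeR's test. That number was 1 without replicate 1 or replicate 3 labelled Bmal1-/-, 2 without replicate 2 labelled Bmal1-/- or WT replicate 1, and 5 without WT replicate 3. Of the 9 spinal cord markers, 6 had positive and 3 had negative differences, with a median of 0.30 on the log2 scale and 0.06 without WT replicate 3. Snap25, Gfap and Aqp4 were higher without overlap and Aldh1l1 was lower, where 26.9% of all tested genes did not overlap in either direction. None passed edgeR's test, 1 had an unadjusted p under 0.05, DESeq2 called 2, limma-voom called 0, and edgeR called 1 without WT replicate 3. That library had the lowest levels of the neuronal genes Snap25, at 456 CPM against 966 to 1223 CPM in the other WT libraries, and Rbfox3, at 30.0 CPM against 68.4 to 82.9 CPM. The part of these cells in the differences of Casp1 and Il1r1 was not tested.

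Compared per kilobase of transcript, Il18 had the highest mean in WT and Il1a the lowest. Il18 was at 19.4 ± 2.72 CPM per kb (SD, n = 4), and its WT range lay wholly above that of Gsdmd, at 10.1 ± 2.55. Pycard at 9.50 ± 2.85, Casp1 at 8.25 ± 1.17, Il1r1 at 6.07 ± 1.49 and Aim2 at 5.66 ± 1.42 CPM per kb followed, and each overlapped its neighbours in the order. A gap then separated Aim2 from Nlrp3, at 1.82 ± 0.36 CPM per kb, which with Il1rn at 1.81 ± 0.80, Il1b at 1.44 ± 1.01 and Il1a at 1.19 ± 0.50 made up a low group whose WT ranges overlapped. Without WT replicate 3 the last 2 changed places, with Il1b at 0.944 ± 0.20 and Il1a at 0.966 ± 0.27 CPM per kb (SD, n = 3), so their order rested on that library. Thus Nlrp3 was below its partners Pycard and Casp1 per length, and Il18 was above Il1b. In the libraries labelled Bmal1-/-, Casp1 stood at 4.84 CPM per kb, after Aim2 at 5.61 rather than before it, and Il1a at 1.44 stood before Il1rn at 1.18 and Il1b at 0.97. The length was that of 1 principal transcript per gene, so the order depends on that transcript being the one expressed. For Pycard it was 3800 bases in a gene that spans chr7:127989708-127993867. A shorter Pycard transcript would raise its level per length, so its place below Il18 depends on that choice.

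**Figure D4:**
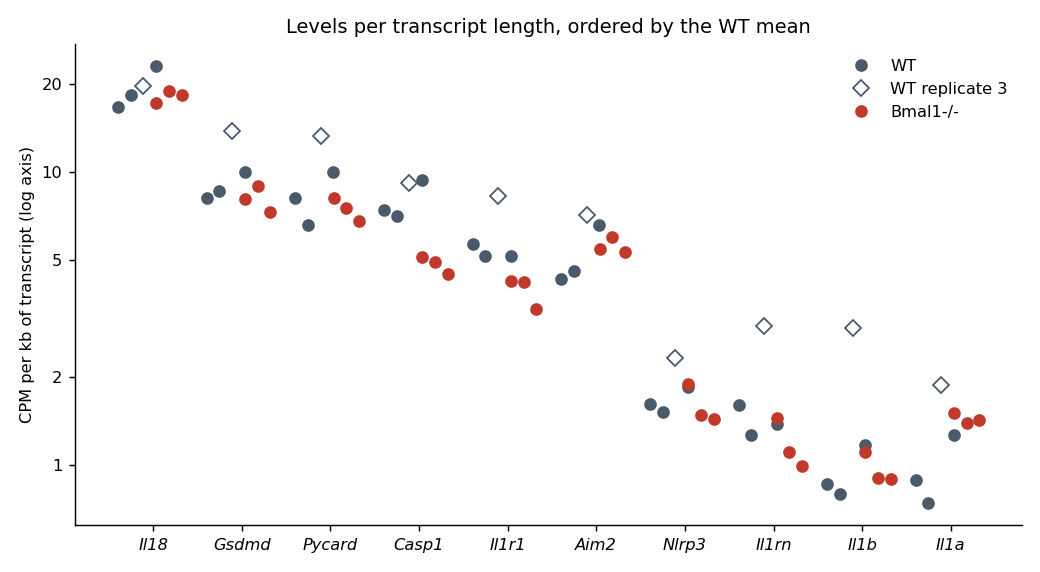
Level of each gene per kilobase of its principal transcript (CPM per kb, log axis), ordered by the WT mean, with WT libraries in grey (replicate 3 as an open diamond) and libraries labelled Bmal1-/- in red. By these lengths Il18 stands above the rest and Nlrp3, Il1rn, Il1b and Il1a form a low group under Aim2.

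The REV-ERB genes fell in every library labelled Bmal1-/-. Nr1d1 was at 5.31, 5.41 and 7.28 CPM there and at 36.4, 36.8, 29.2 and 34.4 CPM in WT, a difference of -2.51 (SE 0.15, adjusted p 0.000456 by edgeR's quasi-likelihood test). Nr1d2 was at 9.63, 11.7 and 13.1 CPM against 67.3, 85.2, 62.0 and 80.5 CPM in WT, a difference of -2.68 (SE 0.16, adjusted p 0.000456 by edgeR). Nr1d1 shares exon sequence on the opposite strand with Thra, so part of its count is uncertain. In the same libraries the 2 known targets in macrophages did not pass: the 95% interval of the difference reached 0.23 at its upper end for Nlrp3 and 0.55 for Il1b. By the methods of the study, the tissue was collected in a fixed morning window. A rise of either transcript in the whole cord at dpi 3 and at that time of day was not detected beside the fall of Nr1d1 and Nr1d2.

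Of 51 further genes of the pathway, in 3 lists, 45 could be tested. None passed edgeR's quasi-likelihood test. An unadjusted p under 0.05 was found for 7 (5 lower and 2 higher), where 20.9% of all tested genes had one. The groups did not overlap for 2 as lower and 5 as higher, where 26.9% of all tested genes did not overlap in either direction. DESeq2 called 1 of the 48 to which it gave an unadjusted p, where it called 1495 of 18916 such genes over the table. Some of these may lack an adjusted p. Limma-voom called 0. Differences were negative for 33 and positive for 12, with a median of -0.11 on the log2 scale, and -0.05 without WT replicate 3. That WT library was the highest for 30 of the 51, and the share of all tested genes highest there was not counted.

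Among the 20 other inflammasome genes, 19 could be tested, with a median of -0.23. Of these, 3 were higher without overlap, Nek7 among them, and 1 was lower without overlap. Nek7, the kinase that NLRP3 needs to assemble, was at 163, 161 and 137 CPM in the group labelled Bmal1-/- and at 127, 120, 133 and 118 CPM in WT. It lay above WT in every library without overlap, with a difference of 0.31 (SE 0.08, adjusted p 0.119 by edgeR), opposite in sign to Nlrp3. P2rx7, the ATP-gated channel that triggers NLRP3, was lower without overlap, at 39.0 ± 1.54 CPM (SD, n = 3) against 45.6 ± 3.94 CPM (SD, n = 4), a difference of -0.23 (adjusted p 0.187 by edgeR). Casp8, a protease of cell death that can also process IL-1β, was at 20.6 ± 2.61 CPM (SD, n = 3) against 29.0 ± 7.07 CPM (SD, n = 4), with a WT value of 39.0 CPM in replicate 3 (adjusted p 0.212 by edgeR).

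Among the 14 other ligands and receptors of the IL-1 family, 9 could be tested, with a median of -0.27. The other 5, Il36a, Il36b, Il36rn, Il1f10 and Il18r1, did not pass the filter on low counts. Il1rl1, the receptor for IL-33, was at 0.78 ± 0.16 CPM (SD, n = 3) against 1.22 ± 0.25 CPM (SD, n = 4), a difference of -0.64 (adjusted p 0.200 by edgeR). Sigirr, a negative regulator of IL-1 and Toll-like receptors, was lower without overlap, at 3.81, 3.48 and 2.77 CPM against 4.00, 4.24, 7.14 and 4.61 CPM, a difference of -0.58 (adjusted p 0.230 by edgeR). Il1r2, the decoy receptor that binds IL-1 without signaling, was at 1.82 ± 0.27 CPM (SD, n = 3) against 2.66 ± 1.02 CPM (SD, n = 4), a difference of -0.55 (adjusted p 0.320 by edgeR). Il1r2, Il1r1 and Il1rl2 are neighbours on chromosome 1, where 99.8 kb separate Il1r2 from Il1r1 and 7.35 kb separate Il1r1 from Il1rl2.

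All 17 genes that carry the signal from the IL-1 receptor could be tested, with 11 negative and 6 positive differences and a median of -0.07. The 3 with the smallest p lay above WT. Irak2, a kinase of the receptor complex, was at 40.0, 44.0 and 38.9 CPM in the group labelled Bmal1-/- and at 32.2, 32.7, 37.6 and 36.7 CPM in WT, without overlap, a difference of 0.24 (adjusted p 0.187 by edgeR). Tab3, which activates the kinase TAK1, had a difference of 0.25 (adjusted p 0.274 by edgeR) with overlapping groups. Tollip, an inhibitor of the pathway, had one of 0.16 (adjusted p 0.280 by edgeR) without overlap.

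**Figure D5:**
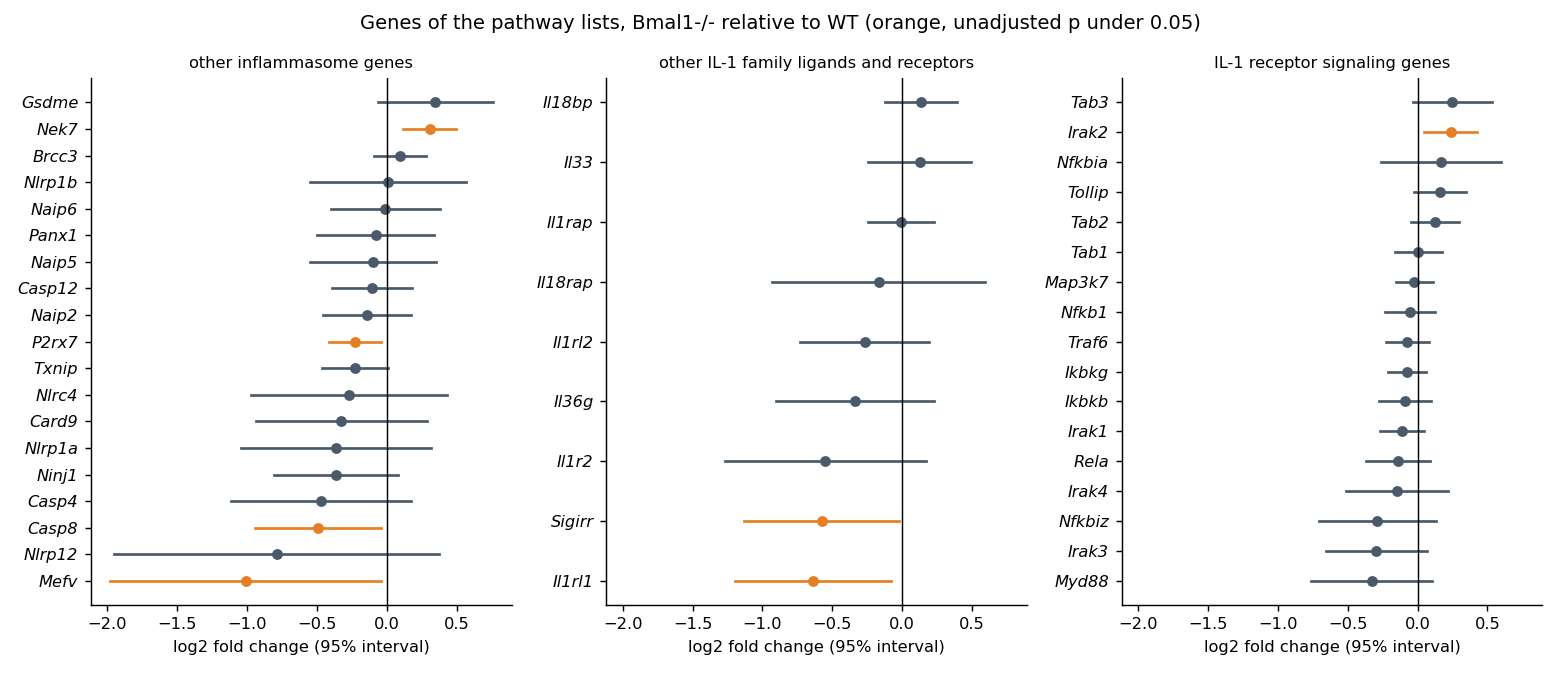
Difference between the libraries labelled Bmal1-/- and WT on the log2 scale, with its 95% interval, for the 45 tested genes of the 3 pathway lists. Orange marks the 7 genes with an unadjusted p under 0.05, of which Nek7 and Irak2 lie right of 0, and no gene passed the adjusted threshold. Over all tested genes 20.9% had an unadjusted p under 0.05.

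The genes most like Nlrp3 and Il1b over the 7 libraries were found by the root mean square difference of centred log2 levels among 14357 tested genes with a mean of at least 1 CPM. For Nlrp3 they included Ticam2 (0.0578), Arpc4 (0.0604), Ap1g2 (0.0606) and Snx8 (0.0617). None of these is a member, and Pycard, the nearest member, ranked 1059 at 0.140. For Il1b they were Lilr4b (0.159), Tfec (0.168), Mid1 (0.171), Srarp (0.192) and Napsa (0.195). Their high level in WT replicate 3 followed from this choice, since Il1b was itself highest there. Il1rn was the member nearest to Il1b, at rank 69 with 0.274, and Nlrp3 ranked 807 with 0.391. The 7 libraries share their 2 groups and the high WT library, so these are descriptions of likeness only.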

How the data were processed

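Total RNA from 7 spinal cord samples was made into stranded poly-A libraries by the authors, who used Tophat2 against GRCm38 and then HTSeq 0.10.0 for gene-level counting (FastQC 0.10.1 is also named in the submitters' processing notes). The deposited values are raw counts per Ensembl gene without normalization, as whole numbers whose totals differ between libraries. The strand setting and the annotation release of the counting were not given in the sources used here. Groups were taken from the labels, with 1 library per mouse.

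The filter was filterByExpr by genotype and kept 15743 of 21965 genes (3039 had no count in any library). TMM factors scaled the libraries, and genotype was tested by the quasi-likelihood method of edgeR 4.0.16 in R 4.3.3 (limma 3.58.1 for limma-voom), with Benjamini-Hochberg adjustment over all tested genes and a threshold of 0.05. CPM are counts per 1000000 of the TMM-scaled library size. Precision was set by the spread between mice (common dispersion 0.0342) rather than by depth for all but the least abundant genes. The ratio of Il1rn to Il1b was compared with an exact permutation test over libraries. Symbols, positions and transcript lengths came from GENCODE M21, with the longest APPRIS principal transcript per gene, and promoters from RefSeq. Older symbols of the Il36 genes were matched through RefSeq synonyms. The procedure was tested on simulated counts.

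The members, the 3 pathway lists and the marker lists were chosen with earlier results of these data known. Named were all 10 members, any pathway gene with an adjusted p under 0.05, the 3 pathway genes with the smallest p in each list, Nr1d1 and Nr1d2, and the 5 genes most like Nlrp3 and Il1b, of which 1 is not reported here. Casp4, Nfkbia and the marker genes were named outside that rule, after their values were seen. Alternatives were DESeq2 1.42.0, limma-voom, RLE size factors, 2 other filters on low counts and sex as a covariate. The replicate block and each library left out in turn were further alternatives. DESeq2 is the tool with which the study called its own genes. The WT means per length without WT replicate 3 were added after the data were seen. Replicate numbers give no shared animal or litter and were used to pair samples only in the replicate block.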

Additional observations from a re-analysis of the deposited data

Results flagged for a closer look

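The level of Il1r1 in WT had 1 library far from the others. WT replicate 3 was at 48.1 CPM, where the other 3 were at 33.0, 30.0 and 30.1 CPM, and the gap to the nearest library took up 0.831 of the whole WT range (Dixon's ratio). Il1b was next, at 0.825 of its range with the same library highest, just under the critical value. Ratios were computed for 11 measures in WT, and chance alone places about 1 in 20 such groups past the critical value. The groups labelled Bmal1-/- held 3 libraries each and were not tested in this way.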

How the results depend on the processing

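The number of members called was 1 with all libraries, and stayed at 1 with RLE size factors, with no filter and with a mean count of at least 10. DESeq2 called 2 (Casp1 and Il1r1, the latter at an adjusted p of 0.0362), and limma-voom and sex as a covariate called 0 each. With each library left out in turn the number ran from 0 to 1, and it was 1 without WT replicate 3 alone. Of the 51 pathway genes, 0 were called; DESeq2 called 1 (Nek7), and with a library left out the number ran from 0 to 1 (Nfkbia, without WT replicate 3). Over all genes 247 were called, against 1495 with DESeq2 and 57 to 730 with a library left out, the latter without WT replicate 3. Fewer samples entered those fits.

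The numbers of the replicates did not pair the samples: deviations of same-numbered libraries correlated at -0.17, 0.18 and -0.30. With the replicate block, 0 members, 0 pathway genes and 0 of all genes were called, and Casp1 had a difference of -0.69 with an adjusted p of 0.411 (edgeR). That fit left few degrees of freedom and gave WT replicate 4 no partner. Its lack of calls therefore could not show that differences were absent.

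The difference of Aim2 changed sign with limma-voom (0.0189), with sex as a covariate (0.0819) and with the replicate block (0.10), and ran from -0.13 to 0.12 with a library left out. That of Il1b ran from -0.78 to 0.0375, positive without WT replicate 3. Of 140 values of members under alternatives, 122 kept their direction and their side of the threshold. The call for Casp1 was lost in 9 of 14 alternatives, over which its adjusted p ran from 2.84e-05 to 0.411. The cause of these changes was not tested.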
